A study of Homo sapiens with 6 samples.

Results

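The human mitochondrial chromosome encodes 37 genes, and all 37 are in the deposited table of 60671 genes, chosen as the rows whose gene name starts with MT-. They comprise 13 mRNA genes for subunits of the respiratory chain and ATP synthase, 2 rRNA genes for the mitochondrial ribosome and 22 tRNA genes. Values come from HaCaT cells, an immortalised line of human keratinocytes labelled WT. The 3 IFN-beta libraries come from cells given that interferon (160 ng/mL) for 24 h in high-glucose medium without serum, and the 3 control libraries from cells given this medium alone. Both groups had grown beforehand in medium with serum and antibiotics. The labels do not say whether replicates were separate cultures and give the batch as unknown, so the tests speak only of the spread among these 6 libraries.

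The chromosome is a compact circle that is copied into RNA from both strands as long precursors. Most genes are read from the heavy strand, while MT-ND6 and 8 of the tRNA genes lie on the light strand. In the textbook model tRNAs punctuate the precursors, and their excision at both ends by the RNase P complex and ELAC2 releases the mRNAs and rRNAs between them. Every polypeptide made from the 13 mRNAs is a core part of complex I, III, IV or V. The levels of the released RNAs differ because each is stabilised and degraded on its own, and the tRNAs are short, folded and heavily modified.

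The tRNA genes the results turn on are given first, to show how short the counted genes are. The first is MT-TQ (tRNA for glutamine, MT positions 4329 to 4400), then MT-TY (tyrosine, 5826 to 5891), MT-TS1 (serine, 7446 to 7514), MT-TP (proline, 15956 to 16023) and MT-TC (cysteine, 5761 to 5826). All 5 lie on the light strand, the letters run 5′ to 3′ as in the GENCODE release 29 transcripts (GRCh38), and the capitals mark the anticodon.
MT-TQ: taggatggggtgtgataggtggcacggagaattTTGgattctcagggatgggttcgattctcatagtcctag
MT-TY: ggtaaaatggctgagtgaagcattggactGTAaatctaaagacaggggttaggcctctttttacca
MT-TS1: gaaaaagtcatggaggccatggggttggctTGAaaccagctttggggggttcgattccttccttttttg
MT-TP: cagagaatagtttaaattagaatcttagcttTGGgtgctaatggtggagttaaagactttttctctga
MT-TC: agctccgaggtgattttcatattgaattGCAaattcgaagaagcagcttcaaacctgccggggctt
MT-TQ shares 3 bases with MT-TI on the other strand, and MT-TC shares 1 base with MT-TY on the same strand. The sequence of MT-ATP8 (MT 8366 to 8572, heavy strand), a small subunit of ATP synthase, shows how tightly the genes are packed, with the 46 bases it shares with MT-ATP6 in capitals.
MT-ATP8: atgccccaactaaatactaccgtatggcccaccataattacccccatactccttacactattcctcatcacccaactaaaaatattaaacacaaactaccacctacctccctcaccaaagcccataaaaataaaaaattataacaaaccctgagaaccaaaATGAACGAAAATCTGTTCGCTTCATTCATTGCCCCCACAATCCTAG

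The depth recovered from the values was 26569656 to 30594527 reads in the IFN-beta and 25832158 to 29998783 reads in the control libraries. Keratinocyte markers were well above 0 for 10 of 10 genes, with a summed level of 3810 to 3860 FPKM in IFN-beta and 3666 to 4038 FPKM in control libraries. Of the markers of other cell types, 1 of 6 for fibroblasts, 1 of 4 for melanocytes, 1 of 5 for leukocytes and 1 of 3 for endothelium reached 0.5 FPKM in any library, and DCN, MLANA, TYR and LYZ were at 0 throughout. The endothelial sum was 2.12 to 2.21 FPKM in IFN-beta and 0.696 to 0.964 FPKM in control libraries. The interferon-induced genes MX1, IFIT1, ISG15 and OAS1 summed to 2083 to 2236 FPKM in IFN-beta and 50.0 to 54.8 FPKM in control libraries. On the second principal component control replicate 3 had the highest score, and the other libraries lay between -10.5 and 8.04.

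Reads from the mitochondrial chromosome took a smaller share of the libraries after IFN-beta, with lower shares of mRNA and rRNA reads in each IFN-beta library and overlapping shares of tRNA reads. All 37 genes together held 5.01, 4.64 and 4.53% of reads in the IFN-beta libraries, against 6.45, 6.63 and 6.14% in the control libraries. The mRNA genes held 4.21, 3.95 and 3.77% in the IFN-beta libraries, against 5.40, 5.45 and 4.99% in the control libraries. For the 2 rRNA genes the shares were 0.789, 0.668 and 0.739% with IFN-beta, against 1.04, 1.16 and 1.14% without it. In each of these the 3 IFN-beta libraries lay below the 3 control libraries. The tRNA genes held 0.0168, 0.0121 and 0.0174% with IFN-beta, against 0.0163, 0.0184 and 0.0114% without it, and the groups overlapped. Most of these tRNA reads came from MT-TS1 and MT-TQ, with 12540 and 7493 reads over the 6 libraries, and 9 of the 22 tRNA genes had none. Shares are relative measures from bulk RNA, so fewer mitochondrial genomes, less RNA per genome and more RNA from the nucleus cannot be told apart.

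**Figure D1:**
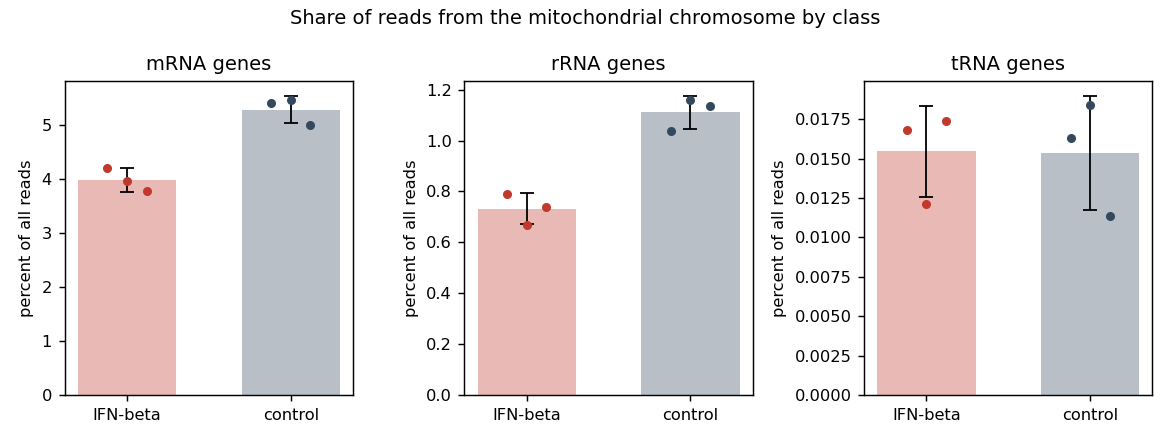
Percent of all reads assigned to mitochondrial mRNA, rRNA and tRNA genes, each panel with its own axis from 0. Bars are means of 3 libraries, error bars are SD and points are libraries. The IFN-beta points lie below the control points for mRNA and rRNA genes, while the tRNA groups overlap at means of 0.0155 ± 0.00290% with IFN-beta and 0.0154 ± 0.00361% without it.

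The make-up of the mitochondrial reads was compared next. The log2 ratio of rRNA to mRNA reads was -2.44 ± 0.11 in IFN-beta and -2.25 ± 0.12 in control libraries (SD, n = 3 each). That of tRNA to mRNA reads was -8.02 ± 0.30 with IFN-beta and -8.45 ± 0.29 without it, and that of light-strand to heavy-strand reads -5.80 ± 0.04 with IFN-beta and -5.98 ± 0.14 without it. All 3 ratios overlapped between the groups. Without control replicate 3 the difference (IFN-beta minus control) was 0.27 in place of 0.43 for tRNA to mRNA and 0.11 in place of 0.18 for light to heavy strand, and sums of FPKM gave 0.33 for the strands. Heavy-strand genes supplied 98.2 ± 0.0490% of mitochondrial reads with IFN-beta and 98.4 ± 0.148% without it.

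Of the 37 genes, 26 had a mean of at least 0.5 FPKM and were tested, with limma on log2(FPKM + 0.5) across 15163 genes and Benjamini-Hochberg adjustment at 0.05. In that fit 14 members were lower and 1, MT-TC, was higher with IFN-beta. MT-TC had no read in the control libraries and passed the filter through its IFN-beta values alone. Its mean was thus bound to be higher with IFN-beta, although IFN-beta replicate 2 had no read either. Its call is no evidence of a rise. Over all tested genes 19.9% were called lower, 22.5% higher and 42.4% either way, and the median log2 change was 0.01. Those shares stand for 3419 higher and 3012 lower genes, against 4070 higher and 2369 lower once FPKM were brought to a common sum, and 2741 higher and 3893 lower under quantile normalization. By class, 11 of 13 mRNA genes were lower, 2 of 2 rRNA genes were lower, and of the 11 tRNA genes tested 1 was lower and 1 higher. The median log2 change was -0.40 over the 13 mRNA genes and 0.02 over the 11 tested tRNA genes. The groups did not overlap, with IFN-beta lower, in 15 of the 26 tested members, namely 12 mRNA genes, both rRNA genes and MT-TE, where 25.4% of all tested genes did so. The 13 called mRNA and rRNA genes passed in 6 of 6 fits that left out 1 library each. Quantile normalization, which forces the same distribution on each library, left 7 members called lower, namely MT-RNR1, MT-RNR2, MT-ATP8, MT-ATP6, MT-ND3, MT-CYB and MT-TE.

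**Figure D2:**
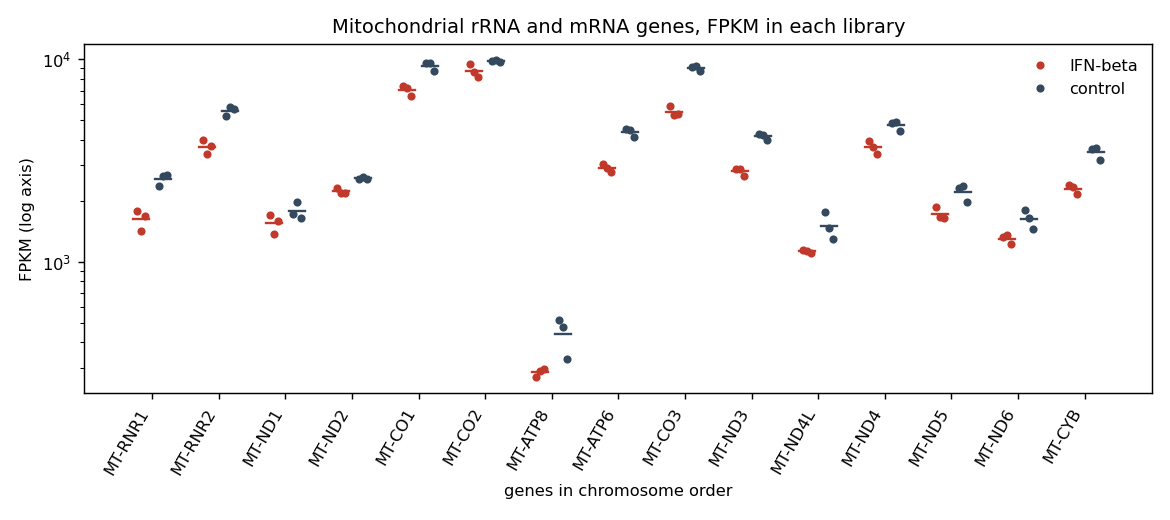
FPKM of the 2 rRNA and 13 mRNA genes in each library on a log axis, in chromosome order, with horizontal lines at the group means. The IFN-beta points lie below the control points in every gene shown except MT-ND1, where they overlap.

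Complex IV, cytochrome c oxidase, has 3 mitochondrially encoded subunits, and their RNAs had the 3 highest mean FPKM of the mitochondrial genes in both groups. MT-CO1 and MT-CO2 carry the haem and copper centres, and MT-CO3 is a further core subunit. MT-CO3 (MT 9207 to 9990) had 5858, 5271 and 5342 FPKM in the IFN-beta libraries, against 9173, 9266 and 8714 FPKM in the control libraries. The groups were far apart. MT-CO3 fell most of the 26 tested genes, with a log2 change of -0.72 ± 0.06 (SE, limma adjusted p = 2.14e-05), and its mean FPKM fell by 39.3%. MT-CO1 (MT 5904 to 7445) stood at 7332, 7198 and 6577 FPKM in the IFN-beta libraries, against 9533, 9543 and 8773 FPKM in the control libraries. It fell by 0.40 on the log2 scale (limma adjusted p = 0.00101), with no overlap between the groups. MT-CO2 (MT 7586 to 8269) had 9463, 8659 and 8193 FPKM in the IFN-beta libraries, against 9796, 9921 and 9716 FPKM in the control libraries. The groups did not overlap there either, but its change of -0.16 ± 0.06 did not pass (95% interval -0.31 to -0.02, limma adjusted p = 0.0622). It came under the threshold when IFN-beta replicate 1 was set aside (log2 change -0.22, limma adjusted p = 0.0356), after rescaling without mitochondrial genes (0.0366), among genes of at least 2 FPKM (0.0432), with robust eBayes (0.0295) and with limma voom on recovered reads (0.00529).

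In the control libraries MT-CO1 and MT-CO3 overlapped in range, at means of 9283 and 9051 FPKM, whereas in the IFN-beta libraries MT-CO1, at 7036 FPKM, lay above MT-CO3, at 5491 FPKM, with no overlap. The FPKM ratio of MT-CO3 to MT-CO2 was 0.619, 0.609 and 0.652 with IFN-beta, against 0.936, 0.934 and 0.897 without it. As a share of the FPKM of all 13 mRNAs, MT-CO2 took 21.3% ± 0.437 in IFN-beta and 17.9% ± 0.678 in control libraries, and MT-CO3 took 13.3% ± 0.399 in IFN-beta and 16.5% ± 0.224 in control libraries (SD, n = 3 each). Quantile normalization ended the calls of MT-CO3 (log2 change -0.08) and MT-CO1 (0.00). MT-CO1 and MT-CO2 held ranks 2 and 1 in every library, so that method gives them a change of 0 by construction. MT-CO3 held rank 4 in IFN-beta replicate 2 and rank 3 in every other library. Its change under that method is thus also largely set by rank, and the lost call says little about it.

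Complex V, the ATP synthase, has its proton channel subunit MT-ATP6 and the small subunit MT-ATP8 encoded on a single overlapping transcript. MT-ATP6 (MT 8527 to 9207) had 3043, 2889 and 2781 FPKM in the IFN-beta libraries, against 4500, 4468 and 4106 FPKM in the control libraries. It fell by 0.59 on the log2 scale (limma adjusted p = 5.75e-05). MT-ATP8 had 268, 289 and 294 FPKM in the IFN-beta libraries, against 513, 478 and 330.3 FPKM in the control libraries. It fell by 0.61 (limma adjusted p = 0.00733), and its control libraries were more spread than those of MT-ATP6, with replicate 3 lowest. The FPKM ratio of MT-ATP8 to MT-ATP6 was 0.0980 ± 0.00900 with IFN-beta and 0.1005 ± 0.0177 without it, and overlapped. Since 46 of the 207 bases of MT-ATP8 are shared, and the handling of shared reads is not given in the sources used here, the level of MT-ATP8 is uncertain.

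Complex III, the cytochrome bc1 complex, has cytochrome b (MT-CYB, MT 14747 to 15887) as its one mitochondrially encoded subunit. MT-CYB had 2378, 2328 and 2160 FPKM in the IFN-beta libraries, against 3585, 3662 and 3166 FPKM in the control libraries. The groups were well apart, and the log2 change was -0.60 ± 0.07 (limma adjusted p = 0.000130), and the mean FPKM fell by 34.1%.

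Complex I, the NADH dehydrogenase, has 7 mitochondrially encoded subunits, of which 6 were called lower. MT-ND3 (MT 10059 to 10404), a small membrane subunit, had 2859, 2881 and 2661 FPKM in the IFN-beta libraries, against 4248, 4218 and 4011 FPKM in the control libraries. The groups were well apart, and it fell most in this complex, by 0.57 on the log2 scale (limma adjusted p = 3.61e-05). The membrane subunits MT-ND4L and MT-ND4 share a transcript and 7 bases. MT-ND4L (MT 10470 to 10766) had 1141, 1131 and 1100 FPKM in the IFN-beta libraries, against 1756, 1470 and 1298 FPKM in the control libraries. MT-ND4 (MT 10760 to 12137) had 3924, 3685 and 3397 FPKM in the IFN-beta libraries, against 4842, 4912 and 4396 FPKM in the control libraries. Both were lower in every IFN-beta library, by 0.41 (limma adjusted p = 0.00673) and 0.36 (limma adjusted p = 0.00248). The ratio of MT-ND4L to MT-ND4 was 0.307 ± 0.0164 with IFN-beta and 0.319 ± 0.0378 without it.

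The other heavy-strand subunits of complex I are MT-ND5, MT-ND2 and MT-ND1. MT-ND5 (MT 12337 to 14148) had 1870, 1656 and 1643 FPKM in the IFN-beta libraries, against 2308, 2371 and 1982 FPKM in the control libraries. It fell by 0.36 on the log2 scale (limma adjusted p = 0.00510). MT-ND2 (MT 4470 to 5511) had 2308, 2183 and 2186 FPKM in the IFN-beta libraries, against 2573, 2625 and 2574 FPKM in the control libraries. Its libraries agreed closely within each group, and it fell by 0.22 (limma adjusted p = 0.00312). MT-ND1 (MT 3307 to 4262), which lies next to the quinone site, had 1691, 1374 and 1592 FPKM in the IFN-beta libraries, against 1717, 1981 and 1642 FPKM in the control libraries. The groups overlapped, and its change of -0.20 ± 0.09 did not pass (95% interval -0.40 to 0.00, limma adjusted p = 0.104), although it passed with limma voom on recovered reads (0.0239). Quantile normalization ended the calls of MT-ND4L (-0.21), MT-ND4 (-0.08), MT-ND5 (-0.18) and MT-ND2, whose change turned to 0.03.

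MT-ND6 (MT 14149 to 14673) is the one mRNA of the light strand. It had 1318, 1358 and 1222 FPKM in the IFN-beta libraries, against 1808, 1635 and 1447 FPKM in the control libraries. It fell by 0.32 on the log2 scale (limma adjusted p = 0.00967), within the range of the heavy-strand mRNAs, which changed by -0.72 to -0.16. Its call ended without the filter on low values (limma adjusted p = 0.0542) and after quantile normalization (-0.14). The FPKM ratio of MT-ND6 to MT-ND5, its neighbour on the other strand, was 0.756 ± 0.0587 with IFN-beta and 0.734 ± 0.0471 without it, and overlapped. Whether counting used strand is not given in the sources used here. If it did not, reads of heavy-strand RNA across MT-ND6 cannot be told apart from its own.

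Both rRNA genes fell, by amounts within the range of the mRNAs. MT-RNR1 (MT 648 to 1601), the RNA of the small ribosomal subunit, had 1781, 1416 and 1676 FPKM in the IFN-beta libraries, against 2353, 2660 and 2675 FPKM in the control libraries. MT-RNR2 (MT 1671 to 3229), that of the large subunit, had 3971, 3418 and 3715 FPKM in the IFN-beta libraries, against 5214, 5806 and 5646 FPKM in the control libraries. The groups were apart in both. The log2 change was -0.66 ± 0.09 for MT-RNR1 (limma adjusted p = 0.000369) and -0.59 ± 0.07 for MT-RNR2 (limma adjusted p = 0.000172). The FPKM ratio of MT-RNR2 to MT-RNR1 was 2.23, 2.41 and 2.22 with IFN-beta and 2.22, 2.18 and 2.11 without it, with the groups just apart. Within the IFN-beta group replicate 2 was lowest for both rRNAs. By mean FPKM MT-RNR2 held rank 4 among mitochondrial RNAs in both groups, below the 3 oxidase mRNAs, and in the IFN-beta libraries it overlapped with MT-ND4. Library selection is not given in the sources used here, so this order of FPKM need not be the order of the RNAs in the cells.

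Along the heavy strand the changes did not follow position evenly. From the promoter side, both rRNA genes fell by 0.66 and 0.59, then MT-ND1 and MT-ND2 changed by -0.20 and -0.22, MT-CO1 by -0.40 and MT-CO2 by -0.16. The run from MT-ATP8 through MT-ATP6 and MT-CO3 to MT-ND3 fell by 0.57 to 0.72, MT-ND4L to MT-ND5 by 0.36 to 0.41, and MT-CYB, the last, by 0.60. Over the 12 heavy-strand mRNAs the slope against midpoint, relative to the control mean, was -0.0280, -0.0192 and -0.0349 log2 units per kb in the IFN-beta libraries, against 0.00817, -0.00170 and -0.00647 in the control libraries. These points share a precursor, a library and a depth, so the slope is a description and carries no test.

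**Figure D3:**
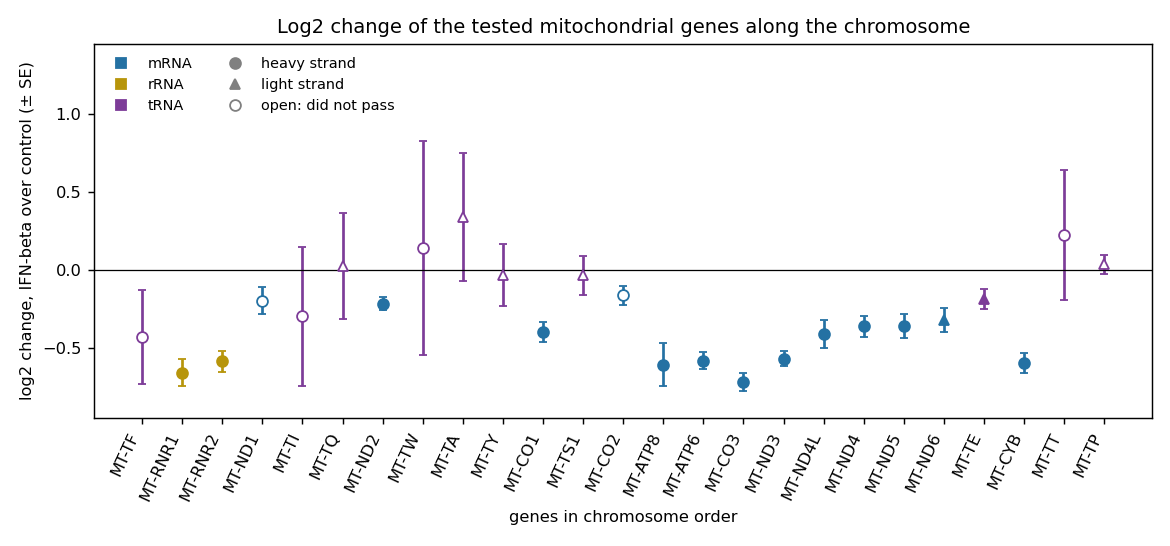
Log2 change (IFN-beta over control, ± SE) of 25 tested mitochondrial genes in chromosome order, by class (colour) and strand (shape), with open symbols for genes that did not pass limma's test at an adjusted p of 0.05. Filled mRNA and rRNA symbols lie between -0.72 and -0.22, while the tRNA genes drawn lie between -0.43 and 0.34, with SE from 0.06 for MT-TP to 0.69 for MT-TW. MT-TC, at 4.03, rests on 2 libraries and is not drawn.

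Of the 22 tRNA genes, 13 had reads in at least 1 library, 9 had at least 100 reads over the 6 libraries and 11 were tested. Levels were read from few fragments, since the tRNA genes together held 3223 to 5330 reads in the IFN-beta and 2939 to 5525 reads in the control libraries. The 9 genes without a read in any library were MT-TV, MT-TL1, MT-TM, MT-TK, MT-TG, MT-TR, MT-TH, MT-TS2 and MT-TL2, all on the heavy strand. A count of 0 allows up to 3 reads per library, and a listed 0 does not show that a tRNA is absent. All 8 light-strand tRNA genes had reads, against 5 of 14 on the heavy strand. Light-strand tRNA genes had 4939, 3154 and 5155 reads in the IFN-beta libraries, against 4688, 5347 and 2893 in the control libraries. Heavy-strand tRNA genes had 136, 69 and 175 reads with IFN-beta, against 135, 178 and 46 without it.

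The tRNA genes with and without reads differed in their neighbours on the same strand. Genes of the opposite strand were left out of these distances. Of the 9 without reads, 8 had a gene of the same strand within 25 bases on both sides. That bound equals the distance beside MT-TK, a gene without reads, so the split describes these genes and is no test. MT-TM had 70 bases without a same-strand gene on one side, where MT-TQ lies on the light strand. MT-TI borders the same 70 bases and had 63 reads over the 6 libraries, so that stretch does not set MT-TM apart. Of the 13 with reads, 11 had at least 31 bases without a same-strand gene on one side. The 31 bases lie between MT-TC and MT-TN, which had 3 reads, all in IFN-beta replicate 2. The other 2, MT-TF and MT-TT, are the first and the last heavy-strand gene by position number. MT-TF starts at MT 577 and MT-TT ends at MT 15953. Distances did not run across the ends of the numbering, so the stretch between these 2 genes on the circle was left out. They are thus not shown to lack free bases. All 8 light-strand tRNA genes are among the 13 with reads, so strand and same-strand distance are mixed here. The part of the counting rule and of fragment length in this was not tested.

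The best covered tRNA genes were MT-TS1, MT-TQ, MT-TP and MT-TY, with 12540, 7493, 2516 and 2346 reads over the 6 libraries. None of them passed the test. The reads of MT-TQ and MT-TY per library are given in the next paragraph. MT-TS1 had 2137, 1701 and 2379 reads in the IFN-beta libraries, against 2384, 2444 and 1495 reads in the control libraries. Its level was 1027 ± 99.6 FPKM in the IFN-beta libraries and 1063 ± 194 FPKM in the control libraries (SD, n = 3 each), with a log2 change of -0.04 (95% interval -0.32 to 0.25, limma adjusted p = 0.843). MT-TS1 lies directly beyond the end of MT-CO1 on the other strand, and the FPKM ratio of MT-TS1 to MT-CO1 was 0.147 ± 0.0220 with IFN-beta and 0.114 ± 0.0159 without it, and the groups did not overlap. If counting ignored strand, trailing bases of the MT-CO1 mRNA cannot be told apart from this tRNA. MT-TP had 413, 413 and 457 reads in the IFN-beta libraries, against 442, 450 and 341 reads in the control libraries. The groups overlapped, with a log2 change of 0.03 (95% interval -0.11 to 0.18, limma adjusted p = 0.690). The FPKM ratio of MT-TP to MT-CYB, the nearest mRNA gene, was 0.0847, 0.0982 and 0.102 with IFN-beta, against 0.0613, 0.0602 and 0.0613 without it, and the groups were apart. That of MT-TQ to MT-ND1 was 0.458, 0.245 and 0.429 with IFN-beta, against 0.344, 0.406 and 0.218 without it, and the groups overlapped.

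A pair of libraries stood low in a cluster of other tRNA genes. MT-TQ had 1683, 644 and 1505 reads in the IFN-beta libraries, against 1258, 1738 and 665 reads in the control libraries. MT-TY had 431, 262 and 479 reads in the IFN-beta libraries, against 409, 502 and 263 reads in the control libraries. IFN-beta replicate 2 and control replicate 3 were lowest in their groups in both genes. The same 2 libraries were lowest in MT-TA (alanine), with 138, 48 and 176 reads in the IFN-beta libraries, against 100, 116 and 46 reads in the control libraries. They were also lowest in MT-TW (tryptophan), with 37, 5 and 43 reads in the IFN-beta libraries, against 20, 36 and 8 reads in the control libraries, and in MT-TT (threonine), with 86, 55 and 109 reads in the IFN-beta libraries, against 103, 107 and 27 reads in the control libraries. They are also the 2 libraries with the fewest reads in all, 26569656 and 25832158. In FPKM, which are scaled to depth, MT-TQ had 775, 337 and 683 in the IFN-beta libraries, against 591, 805 and 358 in the control libraries. The part of depth or of RNA handling in the low counts was not tested. The log2 changes of MT-TQ (0.02, 95% interval -0.75 to 0.80), MT-TY (-0.03, -0.48 to 0.42), MT-TA (0.34, -0.59 to 1.27), MT-TW (0.14, -1.42 to 1.70) and MT-TT (0.23, -0.72 to 1.17) did not pass. Leaving out single libraries gave changes of -0.29 to 0.39 for MT-TQ, -0.22 to 0.17 for MT-TY, -0.34 to 1.01 for MT-TW and -0.35 to 0.52 for MT-TT, on both sides of 0. For MT-TA they ran from 0.0047 without control replicate 3 to 0.84 without IFN-beta replicate 2 (limma adjusted p = 0.994 and 0.0531). Among 10 short nuclear noncoding RNAs such as RN7SL1 and RNU4-2, 6 were listed at 0 in every library, and RN7SL1 had 30.4, 6.55 and 8.75 FPKM with IFN-beta, against 9.72, 10.9 and 11.0 FPKM without it.

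**Figure D4:**
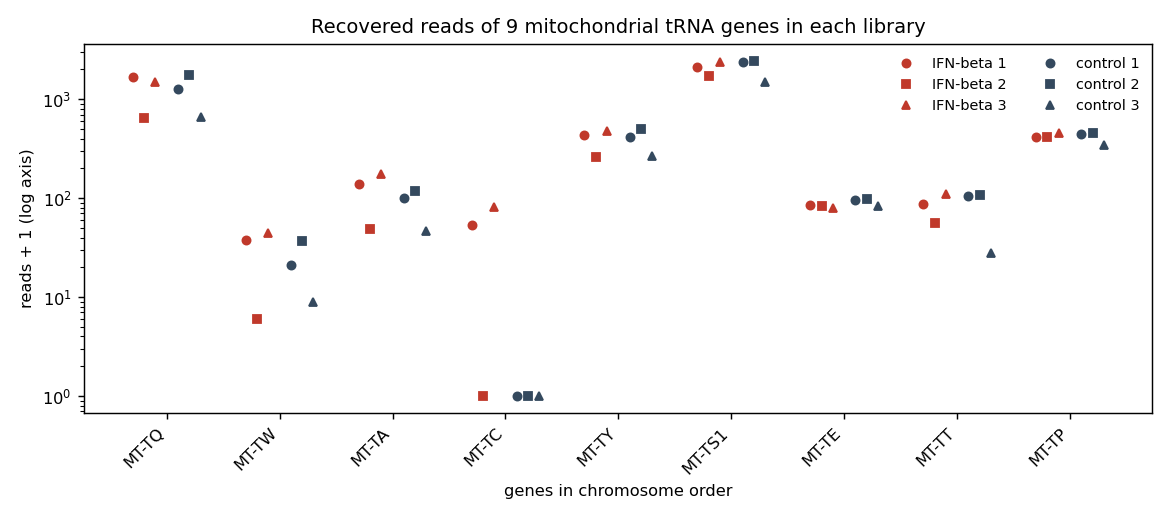
Reads (plus 1, log axis) of the 9 mitochondrial tRNA genes with at least 100 reads in total, one symbol per library, in chromosome order. IFN-beta 2 and control 3 are lowest in their groups for MT-TQ, MT-TW, MT-TA, MT-TY, MT-TS1 and MT-TT, and MT-TC has reads in IFN-beta 1 and IFN-beta 3 alone.

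The 2 tRNA genes called in the fit were called on thin data, and MT-TC had entered it through its IFN-beta values alone. MT-TE (glutamate, MT 14674 to 14742) had 85, 83 and 78 reads in the IFN-beta libraries, against 95, 97 and 83 reads in the control libraries. Its level was 40.8, 45.3 and 36.9 FPKM in the IFN-beta libraries, against 46.5, 46.9 and 46.6 FPKM in the control libraries, a log2 change of -0.19 ± 0.07 (limma adjusted p = 0.0482) with no overlap between the groups. Its call was lost when IFN-beta replicate 1 (limma adjusted p = 0.108) or 3 (log2 change -0.12, limma adjusted p = 0.140) or control replicate 1, 2 or 3 (0.0868, 0.113 and 0.0765) was set aside, after rescaling to the same sum (0.124), without the filter (0.125), without the eBayes trend (0.105) and with limma voom on recovered reads (0.324). MT-TC had 52, 0 and 81 reads in the IFN-beta libraries, against 0, 0 and 0 reads in the control libraries. Reads were thus present in IFN-beta replicates 1 and 3 alone. Its fitted log2 change of 4.03 ± 1.36 (limma adjusted p = 0.0411) is no bound on a fold, and it was 6.04 without IFN-beta replicate 2. Setting aside replicate 1 or 3 of the IFN-beta group (limma adjusted p = 0.132 and 0.134) or control replicate 1, 2 or 3 (0.0858, 0.0919 and 0.0747) ended the call. It also ended without the filter (limma adjusted p = 0.146), without the eBayes trend (0.101), with robust eBayes (0.168) and with limma voom on recovered reads (0.0561).

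The remaining tRNA genes with reads were near the floor. MT-TI (isoleucine) had 5 to 23 reads per library, MT-TF (phenylalanine) 3 to 12, MT-TD (aspartate) 0 to 3 and MT-TN (asparagine) 0 to 3, where 3 reads of a gene of 69 bases correspond to 1.42 to 1.68 FPKM. MT-TI and MT-TF were tested and did not pass (limma adjusted p = 0.622 and 0.282), and MT-TD and MT-TN were not tested. At this depth no difference was detected in MT-TI and MT-TF, while MT-TD and MT-TN give no result either way.

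Nuclear copies of mitochondrial genes resemble their source and can take reads from it. The best covered was MTATP6P1 (chromosome 1, 633696 to 634376), with 98.5% identity to MT-ATP6 over 681 aligned bases in GENCODE release 29. MTATP6P1 had 201, 199.6 and 202 FPKM in the IFN-beta libraries, against 331, 303 and 266 FPKM in the control libraries, and fell by 0.57 on the log2 scale (limma adjusted p = 0.000228), close to the 0.59 of MT-ATP6. MTND2P28 (98.4% identity to MT-ND2) had 45.7, 44.7 and 41.5 FPKM in the IFN-beta libraries, against 55.2, 49.1 and 51.8 FPKM in the control libraries, with a log2 change of -0.24 beside -0.22 for MT-ND2. MTCO1P12 (98.6% identity to MT-CO1) had 6.53, 6.98 and 7.63 FPKM in the IFN-beta libraries, against 18.8, 17.8 and 13.8 FPKM in the control libraries, with a log2 change of -1.19 ± 0.11 (limma adjusted p = 5.22e-05), against -0.40 for MT-CO1. The difference between a copy and its source was not tested. Next came MTND4P12 and MTND6P4, both under 1 FPKM in every library. How multiply aligned reads were assigned is not given in the sources used here, so the levels of the copies are uncertain.

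Genes of the nucleus that copy, transcribe, cut and degrade mitochondrial RNA were read from a list of 48, of which 47 were tested. Of these 7 rose and 9 fell, and the list's median log2 change was 0.00, against shares of 22.5% higher and 19.9% lower and a median of 0.01 over all tested genes. The largest rise was in PNPT1, the polynucleotide phosphorylase that degrades RNA in the mitochondrial matrix and is a known interferon-stimulated gene. PNPT1 had 189, 197 and 205 FPKM in the IFN-beta libraries, against 52.3, 56.1 and 61.4 FPKM in the control libraries, a log2 change of 1.79 ± 0.06 (limma adjusted p = 4.85e-08). The helicase SUPV3L1, its partner, had 59.2, 58.9 and 58.3 FPKM in the IFN-beta libraries, against 51.7, 49.3 and 52.1 FPKM in the control libraries, and rose by 0.20 (limma adjusted p = 0.00279). Both were higher in every IFN-beta library. REXO2, the other decay gene of the list, which degrades short RNA fragments, had 76.0, 79.3 and 80.7 FPKM in the IFN-beta libraries, against 82.7, 91.2 and 84.4 FPKM in the control libraries. It was lower in every IFN-beta library and did not pass (log2 change -0.13, limma adjusted p = 0.0535).

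Among the transcription genes the RNA polymerase POLRMT stood at 33.3 ± 2.72 FPKM in the IFN-beta libraries and 34.7 ± 3.10 FPKM in the control libraries, and its activator TFAM, which also packages the DNA, at 70.7 ± 1.25 FPKM in the IFN-beta libraries and 69.8 ± 4.66 FPKM in the control libraries (SD, n = 3 each). Neither passed (limma adjusted p = 0.569 and 0.775), nor did the elongation factor TEFM (0.662). TFB2M, which melts the promoters, had 18.2, 18.0 and 18.6 FPKM in the IFN-beta libraries, against 19.3, 20.4 and 22.5 FPKM in the control libraries, and fell by 0.18 (limma adjusted p = 0.0423). Setting aside any IFN-beta library (replicates 1, 2 and 3, limma adjusted p = 0.103, 0.114 and 0.0771) or control replicate 2 or 3 (0.0846 and 0.0959) ended that call, as did fits after rescaling to the same sum (0.0996), without the filter (0.0860) and without the eBayes trend (0.0735). MTERF2, a member of the termination factor family, fell by 0.49 (limma adjusted p = 0.000570), at 6.07 ± 0.279 FPKM in the IFN-beta libraries and 8.70 ± 0.367 FPKM in the control libraries. Of the exonic bases, 11.6% of MTERF2 and 26.1% of TEFM overlap a gene of the opposite strand.

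Genes for RNA stability moved both ways. SLIRP, which binds mitochondrial mRNAs together with LRPPRC, had 241, 239 and 239.6 FPKM in the IFN-beta libraries, against 310.3, 312 and 339 FPKM in the control libraries, and fell by 0.42 (limma adjusted p = 8.07e-05). Of the exonic bases of SLIRP, 10.5% are shared with another gene on the same strand and 4.48% on the opposite strand. LRPPRC had 187 ± 1.53 FPKM in the IFN-beta libraries and 198 ± 5.27 FPKM in the control libraries and did not pass (log2 change -0.08, limma adjusted p = 0.108), though it passed after rescaling without mitochondrial genes (0.0405). MTPAP, the mitochondrial poly(A) polymerase, rose by 0.20 (limma adjusted p = 0.0113), with 19.7% of its exonic bases shared with another gene on the same strand. FASTKD1, a FASTK-family protein of mitochondrial RNA, fell by 0.53 (limma adjusted p = 0.000130), while its relative FASTKD5 rose by 0.18 (limma adjusted p = 0.0273). FASTKD5 lost its call when IFN-beta library 2 or 3 (limma adjusted p = 0.0978 and 0.0914) or control replicate 1 or 3 (0.0616 and 0.0567) was set aside, without the filter (0.0509) and after quantile normalization (0.0640).

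In precursor cleavage, ELAC2, which cuts the 3′ end of tRNAs, stood at 102 ± 2.94 FPKM in the IFN-beta libraries and 98.7 ± 2.96 FPKM in the control libraries and did not pass (limma adjusted p = 0.371). HSD17B10, a subunit of the RNase P complex that cuts the 5′ end, fell by 0.21 (limma adjusted p = 0.00523). The 11 genes for tRNA maturation and modification had a median log2 change of -0.01 and ran from -0.13 to 0.09, with a lowest limma adjusted p of 0.0527. In rRNA modification the methyltransferase MRM3 rose by 0.23 (limma adjusted p = 0.00578), where 34.9% of exonic bases overlap a gene of the opposite strand, and METTL15, which modifies the small rRNA, fell by 0.34 (limma adjusted p = 0.00466).

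Among genes that maintain the mitochondrial DNA, the helicase TWNK had 32.8, 35.7 and 36.0 FPKM in the IFN-beta libraries, against 26.0, 24.1 and 25.5 FPKM in the control libraries, and rose by 0.46 (limma adjusted p = 0.000176). SSBP1, the single-stranded DNA binding protein, had 137, 127 and 132 FPKM in the IFN-beta libraries, against 144, 149 and 169.8 FPKM in the control libraries, and fell by 0.22 (limma adjusted p = 0.0189). SSBP1 lost its call when IFN-beta library 2 or 3 (limma adjusted p = 0.0724 and 0.0501) was set aside, without the filter (0.0663) and without the eBayes trend (0.0612). RNA levels of these genes do not measure the amount of mitochondrial DNA, which is not analysed here.

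**Figure D5:**
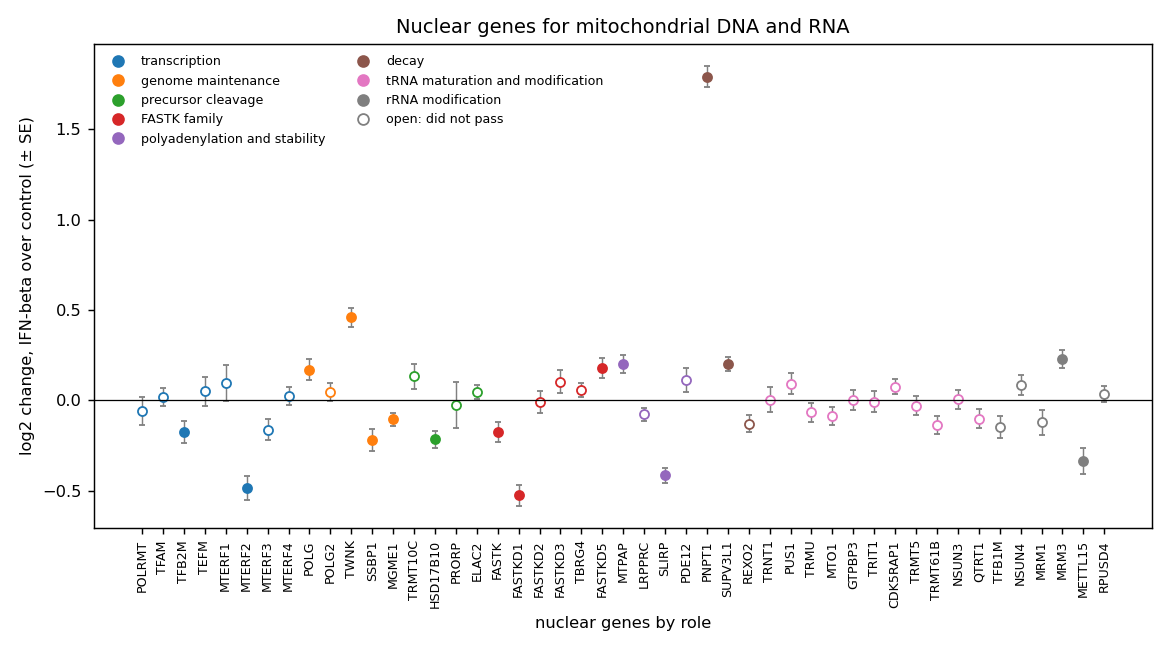
Log2 change (IFN-beta over control, ± SE) of 47 tested nuclear genes for mitochondrial DNA and RNA, grouped by role, with open symbols for genes that did not pass limma's test at an adjusted p of 0.05. PNPT1 stands alone at 1.79, and the others lie between -0.53 and 0.46.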

How the data were processed

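The authors deposited 1 table of FPKM values per gene and library. No aligner, counter, strand setting, library selection or rule for shared reads is named (each not given in the sources used here). Libraries were made from total RNA, per the labels' protocols, and CLC Genomics Workbench 11.0.1 is listed without a step. Per the submitters' processing notes the builds were GRCm38 and mm10, both mouse, yet 60671 of 60671 gene identifiers in the deposited table are human. The coordinates of 37 of 37 members equal those of GENCODE release 29. Columns were matched to samples by title.

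Whole reads were recovered from the FPKM steps with a tolerance of 0.01 reads, exactly for members, whose lengths are known, and for the 30507 genes above 0 at the GENCODE length of 10193 of them and otherwise at the smallest length that gave whole reads in every library (100% in all). Reads of those other genes hence rest on a fitted length. Reads are not independent molecules, so floors of 3 reads cover counting error only. FPKM were tested with limma 3.58.1 in R 4.3.3 (eBayes with trend, two-sided, pseudocount 0.5, mean FPKM of at least 0.5). A log2 change on this scale understates low genes. The fit was tested on simulated data. With limma voom on recovered reads 3692 genes were called higher and 3182 lower. Summaries used Python 3.11.15, pandas 2.3.3 and numpy 2.4.6, and identities Biopython 1.88. Named are all mRNA and rRNA genes, the tRNA genes with at least 100 reads, and of the nuclear list the 6 largest called rises and falls plus a fixed 9. REXO2, further tRNA genes and marker genes were named after their values were seen. Members and lists were chosen with earlier results of these data known.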

Additional observations from a re-analysis of the deposited data

How the results depend on the processing

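Against 18 alternatives per gene, 415 of 468 values of tested members kept their direction and side of the threshold, and 8 of 26 members did so throughout. Those 8 were MT-RNR1, MT-RNR2, MT-ATP8, MT-ATP6, MT-ND3 and MT-CYB, called lower, and MT-TF and MT-TA, which passed in no fit. A value that stayed above the threshold counts as kept here. The count of members called lower was 14, was 13 to 14 in the leave-one-out fits and 7 under quantile normalization. The count called higher was 1 (MT-TC), was 0 to 1 in the leave-one-out fits, and 0 without the filter, without the eBayes trend, with robust eBayes and with limma voom. Of the nuclear list 9 were called lower, 6 to 9 without single libraries, 5 without the filter, 5 without the trend, 14 after quantile normalization and 14 after rescaling without mitochondrial genes. The cause was not tested. With sums of FPKM in place of reads, the difference (IFN-beta minus control) was -2.01 percentage points for all members (-1.68 by reads), -1.67 for mRNA genes (-1.30), 0.0112 for tRNA genes (9.23e-05) and 0.327 for the log2 ratio of light to heavy strand (0.178).

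Signs turned only in values that had not passed, apart from MT-ND2 (0.030 after quantile normalization). Without single libraries the change ran from -0.67 to 0.22 for MT-TI, -0.29 to 0.39 for MT-TQ, -0.34 to 1.01 for MT-TW, -0.22 to 0.17 for MT-TY, -0.20 to 0.0489 for MT-TS1, -0.35 to 0.52 for MT-TT, -0.026 to 0.0857 for MT-TP, -0.0272 to 0.0684 for TFAM and -0.0068 to 0.149 for TEFM. MT-TQ was -0.0036 with median-of-ratios size factors and -0.0028 after rescaling without mitochondrial genes, and TFAM -0.0059 and -0.0051, with -0.0245 after quantile normalization. MT-TY was 0.0145 and MT-TS1 0.0102 after rescaling to the same sum, and MT-TS1 0.16 after quantile normalization. The replicate numbers showed no visible pairing of the samples, with correlations of deviations of -0.05, -0.10 and -0.06 between same-numbered libraries. Those values cannot exclude pairing, since the labels do not say whether replicates were separate cultures. A replicate block gave 15 members lower and 1 higher, and 6 of the nuclear list each way, with MT-CO2 passing (limma adjusted p = 0.0437) and TFB2M not (0.0515). Quantile normalization moved the median of all genes by -0.06. Precision is limited by counts in the tRNA genes, of which 9 had no read and 4 held 3 to 63 reads over 6 libraries, and the part of depth in those low counts was not tested.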
